A study of Bos taurus with 10 samples.

Results

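The ubiquitin and ubiquitin-like conjugation system was examined in bovine oocytes before and after maturation *in vitro* (IVM). Members were the probe sets of the Affymetrix bovine array whose single gene symbol belongs to the activating enzymes (E1), conjugating enzymes (E2), HECT and U-box ligases, cullins, F-box proteins, RING finger (RNF) proteins, SUMO and NEDD8 modifiers, COP9 signalosome subunits, ubiquitin-specific proteases (USP) and the UCH and OTU deubiquitinases. Membership went by symbol alone, under a rule set with earlier results of these data known. Of the 24016 probe sets tested, 210 met the rule, for 152 genes. FARMS, the method that summarised the probes, returned practically 1 value on all arrays for many probe sets. A probe set was called varying if its 10 values spanned at least 0.01 on the log2 scale, which 121 of the 210 members and 9460 of the 24016 probe sets did. The 121 stand for 107 of the 152 genes. The other 45 genes, among them *UBE2N*, *UBE3A*, *USP14*, *CUL2* and *COPS7B*, had no varying probe set and cannot be placed.

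The samples were 5 pools of IVM oocytes and 5 pools of immature oocytes, 1 pool of each per day of ovary collection and 1 array per pool. All came from cumulus-oocyte complexes aspirated from follicles of 3 to 8 mm of slaughtered cows. The IVM complexes were cultured whole for 24 h at 39°C with epidermal growth factor at 10 ng/ml and 10% serum and then freed of cumulus cells, whereas the immature oocytes were freed of cumulus cells straight after collection, at 0 h. From both, 100 ng of RNA was amplified in 2 rounds. No genotype, breed or cow age was given, and each pool mixes the oocytes of several animals.

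Ubiquitin is activated by an E1, passed to an E2 and joined to a target protein by a ligase, and deubiquitinases take it off again. SUMO, NEDD8 and ISG15 travel along parallel chains with their own E1 and E2. NEDD8 is joined to cullins, the scaffolds of the largest ligase family, and switches them on, and the COP9 signalosome removes it. Oocyte maturation is known for its timed protein degradation, through which cyclins and other proteins are removed, while stored maternal messages are used and cleared. How far transcription continues is disputed. The paper reports some during bovine maturation, since the inhibitor α-amanitin lowered transcripts that rise in IVM oocytes. None of this was tested here.

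The deposited values of the 10 arrays had medians of 7.04 to 7.08 on the IVM arrays and 7.04 to 7.10 on the immature arrays. Poly-A controls, meant to be added to the RNA before amplification, averaged 7.95 ± 0.20 on the IVM arrays and 7.02 ± 0.15 on the immature arrays (SD, n = 5 each), a difference of 0.94 on the log2 scale (SE 0.11, p = 0.00794 by a two-sided exact permutation test, which cannot go lower with 5 against 5 arrays). The paper's methods do not mention adding them, and their immature mean lies close to the array medians. Whether they read above background was not tested. Hybridization controls averaged 10.92 ± 0.19 on the IVM arrays and 10.02 ± 0.73 on the immature arrays, with immature replicates 1, 2 and 3 the lowest (SD, n = 5 each, p = 0.0556 by the same exact test). The actin control's 3' minus 5' log2 value averaged -1.33 ± 0.19 on the IVM arrays (SD, n = 5). On the immature arrays it averaged 4.815 ± 1.53 (SD, n = 5). The difference was -6.145 (SE 0.69, p = 0.00794 by the two-sided exact permutation test). That of the GAPD control averaged 3.16 ± 0.43 and 3.10 ± 0.26 (SD, n = 5 each, p = 0.802 by the two-sided exact permutation test). Of 8 oocyte marker genes on the array all 8 varied and 3 of these had a positive difference, with mean log2 values of 10.29 to 11.66 on the IVM arrays and 12.69 to 13.21 on the immature arrays. Of 19 cumulus and granulosa marker genes 15 varied and 8 of these had a positive difference, and their mean was 8.35 to 10.44 on the IVM arrays and 6.93 to 8.65 on the immature arrays. Their varying probe sets, 14 positive and 7 negative, ranged from 10.86 for *TNFAIP6* to -1.79 for *FST*, with a median of 0.29. The shift of this mean is therefore not shared by all markers. Of 16 markers of other somatic and blood cells 4 varied, at 7.65 to 9.71 on the IVM arrays and 7.06 to 9.08 on the immature arrays. The part of these shifts in the results below was not tested.

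Large falls far outnumbered rises at the strict threshold, while at the looser one the directions were nearly balanced. At an adjusted p under 0.0001, 23 member probe sets of 22 genes were lower in IVM oocytes and 2 probe sets of 2 genes, *UBE2D2* and *FBXL20*, were higher. The 23 are 11.0% of the 210 members and 19.0% of the 121 that varied, beside 4.81% of all 24016 probe sets and 12.1% of the 9460 that varied. The 2 higher ones are 0.952% and 1.65%, beside 0.974% and 2.38%. All 23 were at least 2-fold lower, with folds of 2.16 to 25.2. A lower value in an equal mass of RNA may come from fewer oocyte transcripts in the pool, from a larger share of other RNA or from shorter poly(A) tails. These cannot be told apart, nor can fewer cells of a type and less RNA per cell. The arrays used a 3' amplification kit, and for its time course the paper chose random primers so that tail length would not affect amplification. It also compared random with oligo(dT) primers by qPCR, for a panel of transcripts that rose on its arrays. Patterns were alike, and a tendency to larger fold changes with oligo(dT) was not significant. Its random-primed qPCR of further pools gave nearly all chosen genes, rising and falling, the direction seen on the arrays.

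At an adjusted p under 0.05, counted over varying probe sets, there were 47 lower (38.8%) and 45 higher (37.2%), beside 31.7% and 34.0% of all varying probe sets, and 29 varying members did not pass. The 5 IVM arrays all lay below the 5 immature arrays for 43 members (35.5%, beside 29.3% of all varying probe sets) and all above them for 34 (28.1%, beside 27.0%). The median difference was 0.04 over the members and 0.18 over all varying probe sets, and single members ranged from -4.66 for *RNF8* to 2.19 for *RNF11*. Centred on the poly-A controls, 21 of the 45 higher members turned negative and 24 stayed positive.

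**Figure D1:**
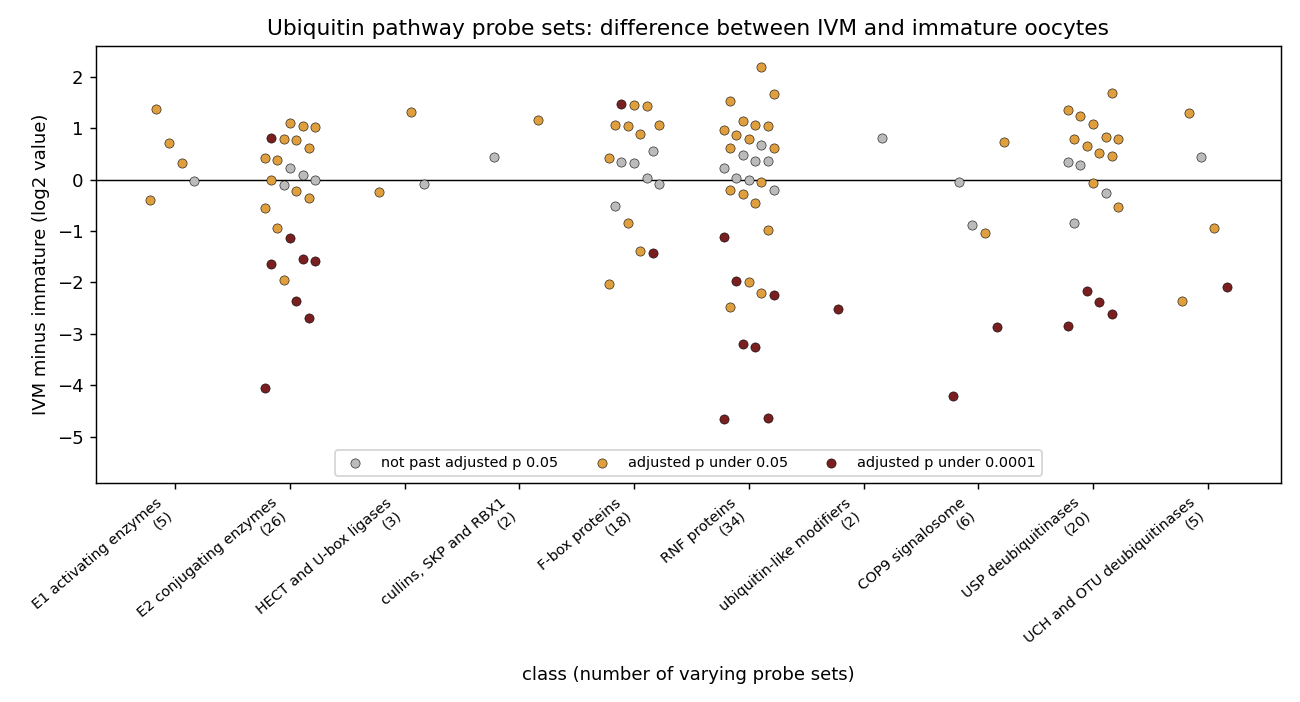
Each point is 1 of the 121 varying member probe sets, placed by class on the horizontal axis and by its IVM minus immature difference in log2 value on the vertical axis, and coloured by its adjusted p. The dark points below 0 are the 23 strict falls, which reach -4.66, and the 2 dark points above 0 are *UBE2D2* and *FBXL20*.

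Of the 25 strict calls, 16 were kept whichever 1 of the 10 arrays was left out, all of them falls. The other 9 ended without at least 1 array in the fit over all probe sets, with adjusted p at most 5.62e-04, and all 25 were kept in every such fit over varying probe sets alone. With the collection day as a block, none of the 25 passed the strict threshold over all probe sets (adjusted p 3.80e-04 to 0.00529), all 25 stayed under 0.05, and 19 passed the strict threshold over varying probe sets. Without the 3 immature arrays of low hybridization controls, all 25 were under 0.05 and none under 0.0001 (adjusted p 4.22e-04 to 0.0168). Of the 92 calls at the looser threshold, 80 were kept whichever array was left out, 78 with the day as a block and 49, of which 31 were falls and 18 rises, without those 3 immature arrays. Among the members described below, the looser calls that ended without those 3 arrays were *UBA2*, *UBA7*, *SAE1*, *UBE2B*, *UBE2J1*, *UBE2S*, the higher probe set of *UBE2A*, both of *UBE3B*, *COPS6*, *COPS8*, *FBXW11*, *FBXO7*, *RNF2*, *RNF11*, *RNF128* and *OTUB1*, and with the block *SAE1* and *FBXO7*.

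**Figure D2:**
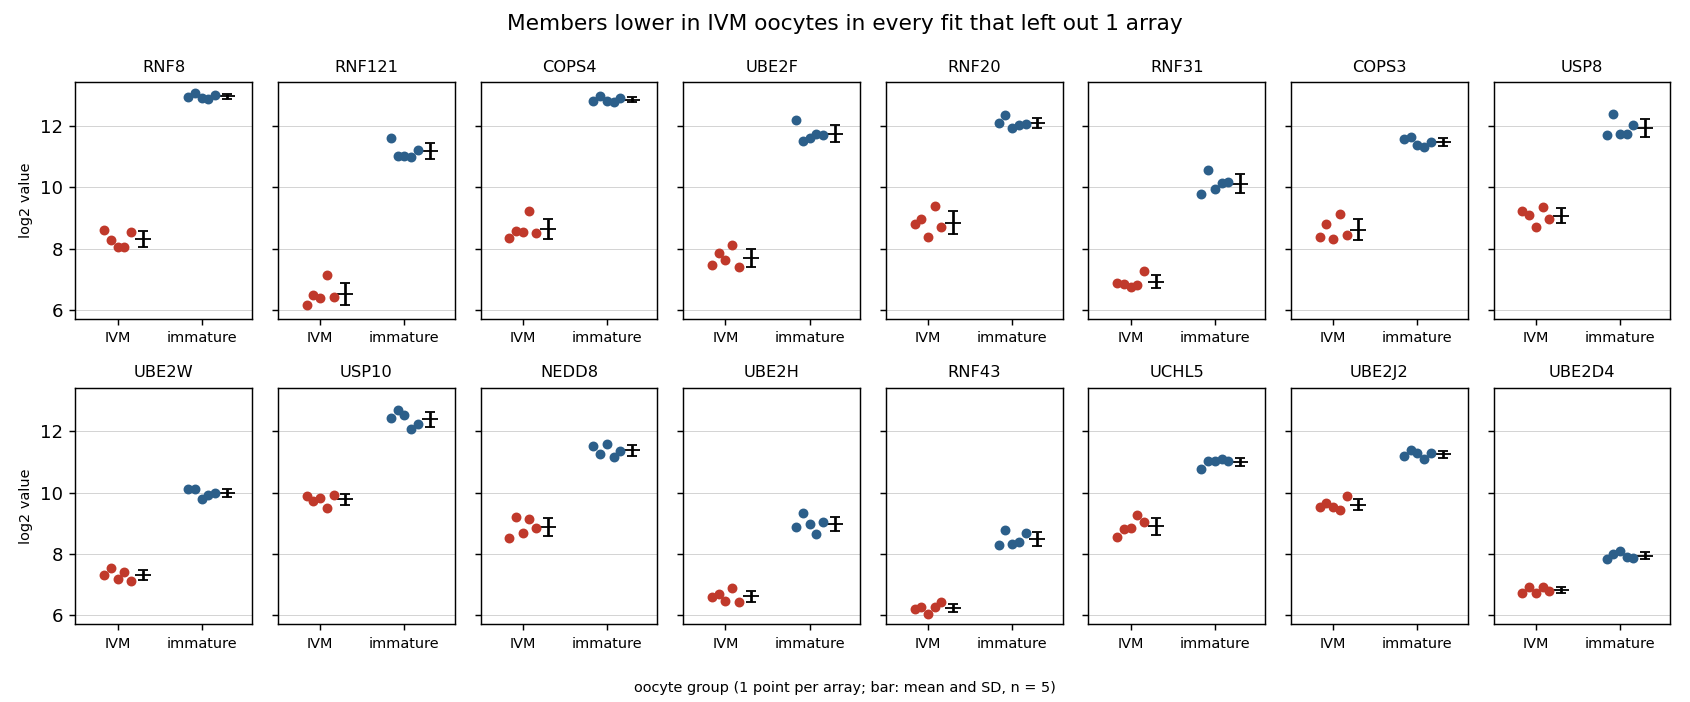
Log2 value on each array, IVM left and immature right, for the 16 probe sets whose strict call was kept in all 10 fits that left out 1 array; bars give the mean and SD (n = 5). In each panel the highest IVM array lies below the lowest immature array, by the widest gap for *RNF8* and *RNF121*.

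NEDD8 itself and *UBE2F*, 1 of the E2 enzymes that pass it on, were far lower in IVM oocytes. *NEDD8* had log2 values of 8.51, 9.19, 8.68, 9.14 and 8.85 in IVM replicates 1 to 5, against 11.54, 11.25, 11.59, 11.18 and 11.37 in immature replicates 1 to 5. The groups did not overlap, and the difference was -2.51 (SE 0.15, adjusted p = 6.58e-06), a 5.69-fold lower value. *UBE2F*, an E2 dedicated to NEDD8 beside *UBE2M*, which was not analysed here, read 7.46, 7.86, 7.62, 8.12 and 7.40 in IVM oocytes, against 12.20, 11.51, 11.60, 11.73 and 11.71 in immature oocytes. Its IVM arrays stood in the order of the cumulus and granulosa marker means. Every IVM pool was more than 3 log2 units below every immature pool, and the difference was -4.06 (SE 0.18, adjusted p = 1.12e-06), or 16.7-fold. *UBA3*, the catalytic subunit of the NEDD8 E1, did not fall with them. It averaged 9.69 ± 0.07 in IVM oocytes and 9.36 ± 0.08 in immature oocytes (SD, n = 5 each), a difference of 0.33 (SE 0.05, adjusted p = 0.00125) that becomes -0.61 when arrays are centred on the poly-A controls.

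The remaining modifier, *SUMO3*, did not pass. It read 9.14, 9.96, 8.92, 10.61 and 9.12 in IVM oocytes and 8.59, 7.97, 8.81, 9.57 and 8.78 in immature oocytes, with overlapping groups and a difference of 0.81 (SE 0.41, adjusted p = 0.190), or -0.13 after poly-A centring. The 2 subunits of the SUMO E1 differed in sign, with calls near the looser threshold. *UBA2*, the catalytic one, averaged 10.04 ± 0.22 in IVM oocytes and 10.44 ± 0.18 in immature oocytes (difference -0.40, adjusted p = 0.0414). *SAE1*, its partner, averaged 11.68 ± 0.40 in IVM oocytes and 10.96 ± 0.18 in immature oocytes (difference 0.72, adjusted p = 0.0232, all SD with n = 5), and that difference is under the poly-A shift of 0.94. Both calls ended without the 3 immature arrays of low hybridization controls (adjusted p = 0.439 for *UBA2* and 0.311 for *SAE1*). That of *SAE1* also ended with the day as a block (0.0501) and without IVM replicate 1 or immature replicate 2 or 3 (up to 0.0556), and that of *UBA2* after centring on the median (0.145) and when any array other than IVM replicate 1 or 3 or immature replicate 4 was left out (up to 0.0894). *UBA1*, the main ubiquitin E1, had values of 11.48 to 11.66 in IVM oocytes and 11.59 to 11.66 in immature oocytes and did not pass (difference -0.03, adjusted p = 0.576).

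The E1 and E2 of ISG15 also went opposite ways. *UBA7*, the E1, read 7.75, 8.21, 8.24, 8.99 and 8.04 in IVM oocytes, against 6.75, 6.99, 6.85, 6.77 and 6.97 in immature oocytes, so the groups did not overlap (difference 1.38, SE 0.21, adjusted p = 0.00135). *UBE2L6*, the E2, read 6.57, 6.99, 6.23, 6.87 and 6.77 in IVM oocytes, against 8.16, 8.34, 8.13, 8.31 and 8.37 in immature oocytes. It was lower on every IVM array (difference -1.58, SE 0.14, adjusted p = 6.64e-05), and its strict call ended when any array other than IVM replicate 3 was left out (adjusted p up to 4.00e-04).

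Among the E2 enzymes, 7 of 33 probe sets were lower and 1 was higher at the strict threshold, and 13 were lower and 9 higher at the looser one, of 26 that varied, with a median of -0.06. Among the varying E2 probe sets, 26.9% were strict falls and 3.85% strict rises, beside 12.1% and 2.38% of all varying ones. The looser calls were 50.0% lower and 34.6% higher, beside 31.7% and 34.0%. Besides *UBE2F* and *UBE2L6*, the strict falls were *UBE2W*, *UBE2H*, *UBE2J2*, *UBE2A* and *UBE2D4*. *UBE2W*, which attaches a single ubiquitin to the amino terminus of proteins, read 7.30, 7.53, 7.17, 7.42 and 7.12 in IVM oocytes, against 10.13, 10.13, 9.78, 9.93 and 9.99 in immature oocytes. Both groups were tight and far apart, with a difference of -2.68 (SE 0.10, adjusted p = 4.54e-07). *UBE2J2*, an E2 of the endoplasmic reticulum that serves degradation of misfolded proteins, averaged 9.61 ± 0.17 in IVM oocytes and 11.25 ± 0.12 in immature oocytes (SD, n = 5 each), a difference of -1.64 (SE 0.09, adjusted p = 4.50e-06). Its relative at the same membrane, *UBE2J1*, averaged 7.35 ± 0.28 in IVM oocytes and 6.75 ± 0.13 in immature oocytes, higher at the looser threshold (difference 0.61, adjusted p = 0.0105) but by less than the poly-A shift.

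The UBE2D enzymes, general partners of many RING ligases and close to each other in sequence, did not move together. *UBE2D4* averaged 6.82 ± 0.10 in IVM oocytes and 7.95 ± 0.11 in immature oocytes, a difference of -1.13 (SE 0.07, adjusted p = 5.58e-06). *UBE2D2* read 10.69, 10.73, 10.44, 10.68 and 10.75 in IVM oocytes, against 9.81, 9.86, 9.90, 9.84 and 9.81 in immature oocytes. All 5 IVM arrays were above all immature ones (difference 0.82, SE 0.06, adjusted p = 1.75e-05), but the difference becomes -0.12 after poly-A centring, and the strict call was kept only without IVM replicate 3, 4 or 5 (adjusted p up to 1.30e-04 without another array). *UBE2D3* did not pass (difference 0.23, adjusted p = 0.248). Because the coding sequences of this family are alike, how far each probe set separates its gene from the others was not tested.

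E2 enzymes of the anaphase-promoting complex, the ligase that removes cyclin B at the metaphase to anaphase transition, were not among the falls. *UBE2C*, which starts ubiquitin chains for it, averaged 10.08 ± 0.45 in IVM oocytes and 10.19 ± 0.21 in immature oocytes and did not pass (difference -0.11, adjusted p = 0.785). *UBE2S*, which lengthens them, read 9.39, 8.96, 9.02, 8.60 and 9.82 in IVM oocytes, against 8.20, 7.93, 8.22, 8.19 and 8.16 in immature oocytes, without overlap (difference 1.02, SE 0.21, adjusted p = 0.00722). *UBE2Z*, which takes ubiquitin from the E1 *UBA6*, was higher by 1.09 (SE 0.19, adjusted p = 0.00241), while *UBA6* itself had no varying probe set.

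For 3 genes, a pair of varying probe sets gave opposite answers, each at an adjusted p under 0.05. *UBE2A* encodes a RAD6 enzyme, the E2 for histone H2B and for the replication clamp PCNA. Its first probe set read 7.14, 6.98, 7.42, 6.96 and 7.36 in IVM oocytes, against 8.76, 8.92, 8.76, 8.41 and 8.75 in immature oocytes (difference -1.55, SE 0.13, adjusted p = 3.61e-05), and its strict call was kept only without IVM replicate 3 or immature replicate 4 (adjusted p up to 2.43e-04 without another array). The other had 9.39 to 10.29 in IVM oocytes and 8.86 to 9.39 in immature oocytes (difference 0.76, SE 0.18, adjusted p = 0.0124), or -0.17 after poly-A centring, with groups that met at 9.39. The other RAD6 gene, *UBE2B*, read 8.13, 8.86, 8.81, 9.53 and 8.09 in IVM oocytes, against 10.78, 11.02, 11.26, 9.97 and 10.11 in immature oocytes, and was lower at the looser threshold (difference -1.94, SE 0.37, adjusted p = 0.00417).

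The contrast was widest for *UBE2H*, an E2 of histones and of the multi-subunit CTLH ligase. Its lower probe set read 6.60, 6.71, 6.48, 6.90 and 6.44 in IVM oocytes, against 8.89, 9.33, 8.99, 8.66 and 9.03 in immature oocytes (difference -2.36, SE 0.13, adjusted p = 4.88e-06). The higher one read 11.07, 10.88, 10.76, 10.47 and 11.16 in IVM oocytes, against 9.75, 10.23, 9.76, 9.57 and 9.84 in immature oocytes (difference 1.04, SE 0.16, adjusted p = 0.00152). Neither pair of groups overlapped, so no single direction can be given for the gene. *UBE3B*, a HECT ligase, had 1 probe set with a difference of 1.32 (SE 0.20, adjusted p = 0.00148) and another with -0.23 (SE 0.06, adjusted p = 0.0211), whose call ended without immature replicate 2 (adjusted p = 0.0504) and after centring on the median (0.145). Which transcript or position each probe set reads was not examined here. Whether the 3' minus 5' shift of the actin control bears on these pairs was not tested.

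**Figure D3:**
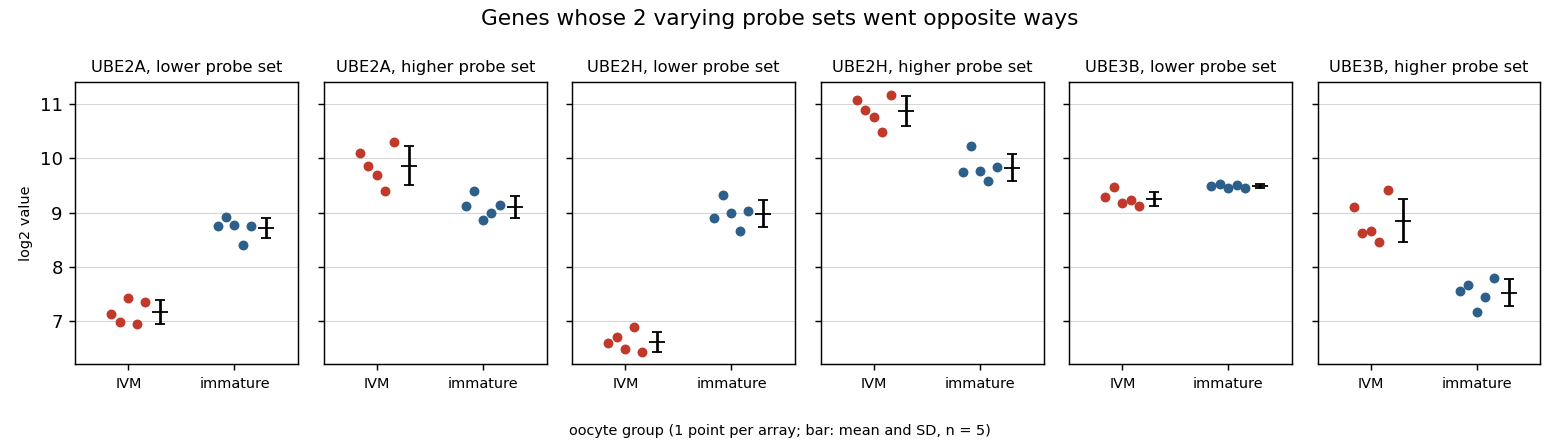
Log2 values per array of both varying probe sets of *UBE2A*, *UBE2H* and *UBE3B*, IVM left and immature right in each panel, with mean and SD (n = 5). For each gene the IVM mean is below the immature mean for the lower probe set and above it for the higher one, with differences of -2.36 and 1.04 for *UBE2H*. The arrays of the groups overlap for the higher *UBE2A* and the lower *UBE3B* probe set.

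COP9 signalosome subunits gave 2 of the largest falls. *COPS4*, a scaffold subunit, read 8.35, 8.57, 8.54, 9.22 and 8.51 in IVM oocytes, against 12.80, 12.97, 12.81, 12.78 and 12.92 in immature oocytes. The immature pools lay within 0.2 of each other, and the difference was -4.22 (SE 0.15, adjusted p = 4.29e-07), or 18.6-fold. *COPS3*, another scaffold subunit, read 8.38, 8.80, 8.30, 9.12 and 8.44 in IVM oocytes, against 11.57, 11.62, 11.37, 11.32 and 11.46 in immature oocytes (difference -2.86, SE 0.16, adjusted p = 4.58e-06).

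The other subunits did not share this size of change. *COPS5*, the catalytic subunit that cuts NEDD8 off cullins, spread widely in IVM oocytes, at 7.89, 9.50, 8.73, 10.26 and 7.73, against 9.45, 9.41, 9.90, 9.91 and 9.86 in immature oocytes, and did not pass (difference -0.88, SE 0.49, adjusted p = 0.238). IVM replicates 4 and 2, the highest for *COPS5*, were also the highest for *COPS3* and *COPS4*, though not for *COPS8* or *COPS9*. They also had the highest cumulus and granulosa marker means, at 10.44 and 9.60, against 8.35 to 9.21 in the other IVM arrays. *COPS6* was lower at the looser threshold (difference -1.03, adjusted p = 0.0246) with the same arrays highest, a call that was kept only without IVM replicate 2 or 4 or immature replicate 1 or 3 (adjusted p up to 0.0586 without another array), and *COPS9* did not pass (difference -0.05, adjusted p = 0.647). *COPS8* was higher by 0.74 (SE 0.11, adjusted p = 0.00137) without overlap (difference -0.20 after poly-A centring). In all, 2 of 7 COP9 probe sets were lower and none higher at the strict threshold, and 3 were lower and 1 higher at the looser one. The median was -0.96 over the 6 that varied. Of these 6, 33.3% were strict falls and 0.00% strict rises, beside 12.1% and 2.38% of all varying probe sets. The looser calls were 50.0% lower and 16.7% higher, beside 31.7% and 34.0%. So few probe sets make these shares coarse.

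Cullin components that varied were not lower. *CUL1*, the scaffold of SCF ligases, read 8.97, 9.12, 9.05, 9.31 and 9.27 in IVM oocytes, against 7.94, 7.80, 7.82, 8.37 and 7.98 in immature oocytes, without overlap and just short of the strict threshold (difference 1.16, SE 0.12, adjusted p = 1.54e-04). *RNF7*, the RING subunit that pairs with *CUL5*, averaged 9.05 ± 0.16 in IVM oocytes and 8.26 ± 0.12 in immature oocytes (SD, n = 5 each, difference 0.79, adjusted p = 2.30e-04), a rise smaller than the poly-A shift. *CUL5* did not pass (difference 0.44, adjusted p = 0.0905), and *CUL2* and *CUL7* had no varying probe set. The regulators of the cycle outside the symbol rule are given with the other pathway genes below.

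**Figure D4:**
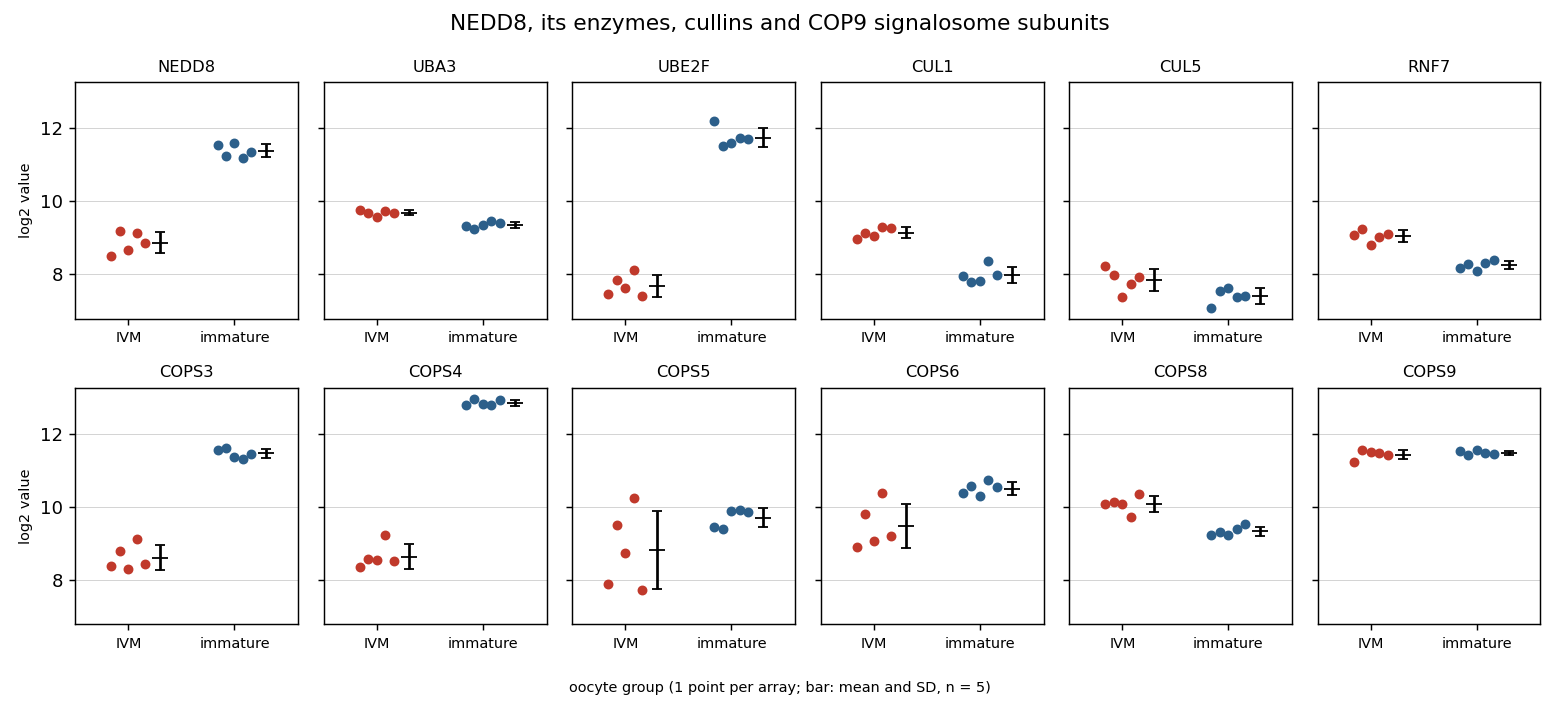
Log2 values per array, IVM left and immature right, with mean and SD (n = 5), for NEDD8, its E1 subunit *UBA3* and E2 *UBE2F*, the varying cullins with *RNF7*, and the 6 varying COP9 subunits. *NEDD8*, *UBE2F*, *COPS3* and *COPS4* stand lower in IVM oocytes, with differences of -2.51 to -4.22, while *CUL1* stands 1.16 higher and *COPS5* spreads from 7.73 to 10.26 within the IVM arrays.

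F-box proteins, the substrate receptors of SCF ligases, held calls in both directions. Of 39 probe sets, 18 varied, with 1 lower and 1 higher at the strict threshold (5.56% each of those that varied, beside 12.1% and 2.38% of all varying probe sets). At the looser threshold 4 were lower and 8 higher (22.2% and 44.4%, beside 31.7% and 34.0%). For 4 the IVM arrays lay all below and for 4 all above the immature ones (22.2% each, beside 29.3% and 27.0%). The median was 0.39, beside 0.18 over all varying probe sets and below the poly-A shift of 0.94. *FBXL20*, known from synapses, read 9.86, 9.86, 9.95, 9.69 and 10.12 in IVM oocytes, against 8.44, 8.82, 8.22, 8.15 and 8.49 in immature oocytes (difference 1.47, SE 0.14, adjusted p = 8.19e-05). Its strict call ended when any array other than immature replicate 2 was left out (adjusted p up to 4.60e-04), and its other probe set did not pass (difference 0.56, adjusted p = 0.0974). *FBXO9* was higher on both of its varying probe sets, by 1.45 (adjusted p = 1.22e-04) and 1.05 (adjusted p = 7.40e-04). *FBXW7*, which directs cyclin E and MYC to degradation, read 10.91, 10.93, 10.69, 10.26 and 11.15 in IVM oocytes, against 9.39, 9.61, 9.27, 9.01 and 9.52 in immature oocytes, without overlap (difference 1.43, SE 0.18, adjusted p = 5.29e-04).

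The F-box falls were *FBXO22*, *FBXO15*, *FBXW11* and *FBXO7*. *FBXO22*, a receptor for histone demethylases, averaged 8.45 ± 0.29 in IVM oocytes and 9.88 ± 0.09 in immature oocytes (SD, n = 5 each, difference -1.43, SE 0.14, adjusted p = 9.69e-05), and its strict call ended when any array other than IVM replicate 4 was left out (adjusted p up to 5.62e-04). *FBXO15*, a gene expressed in mouse oocytes and embryonic stem cells, read 9.82, 9.93, 9.90, 9.01 and 10.10 in IVM oocytes, against 11.53, 11.72, 11.79, 11.81 and 12.06 in immature oocytes (difference -2.03, SE 0.21, adjusted p = 1.41e-04). *FBXW11*, a beta-TrCP receptor that serves degradation of cell cycle inhibitors such as WEE1 and EMI1, read 8.25, 7.92, 7.35, 7.64 and 8.05 in IVM oocytes, against 9.28, 9.52, 9.28, 8.86 and 9.17 in immature oocytes (difference -1.38, SE 0.19, adjusted p = 7.93e-04). *FBXO7*, which also acts in mitochondrial quality control, was lower by a smaller step (difference -0.84, adjusted p = 0.0190), and its groups did not overlap.

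RNF proteins held the largest falls of all members. Of 54 probe sets, 34 varied, 7 were lower and none higher at the strict threshold, and 15 were lower and 11 higher at the looser one, with a median of 0.02. Among the varying RNF probe sets, 20.6% were strict falls and 0.00% strict rises, beside 12.1% and 2.38% of all varying ones. The looser calls were 44.1% lower and 32.4% higher, beside 31.7% and 34.0%. *RNF8*, a ligase that marks histone H2A beside DNA double-strand breaks, read 8.59, 8.27, 8.06, 8.05 and 8.55 in IVM oocytes, against 12.94, 13.07, 12.91, 12.86 and 13.01 in immature oocytes. No IVM pool came within 4 log2 units of an immature pool, and the difference was -4.66 (SE 0.12, adjusted p = 8.02e-08), or 25.2-fold. *RNF168*, which extends the same H2A mark, read 9.07, 8.72, 8.93, 8.50 and 9.11 in IVM oocytes, against 10.94, 11.87, 11.19, 10.52 and 10.86 in immature oocytes (difference -2.21, SE 0.25, adjusted p = 2.64e-04).

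*RNF121*, a ligase of the endoplasmic reticulum and Golgi membranes, fell as far. It read 6.17, 6.49, 6.39, 7.13 and 6.44 in IVM oocytes, against 11.61, 11.01, 11.03, 10.99 and 11.20 in immature oocytes (difference -4.64, SE 0.20, adjusted p = 9.77e-07). *RNF20*, the ligase that works with RAD6 to place ubiquitin on histone H2B, read 8.81, 8.96, 8.38, 9.39 and 8.70 in IVM oocytes, against 12.10, 12.35, 11.94, 12.04 and 12.07 in immature oocytes. Its groups were more than 2 log2 units apart (difference -3.25, SE 0.18, adjusted p = 3.87e-06). *RNF31*, the catalytic subunit of the complex that builds linear ubiquitin chains, read 6.89, 6.83, 6.76, 6.81 and 7.28 in IVM oocytes, against 9.77, 10.57, 9.93, 10.15 and 10.16 in immature oocytes (difference -3.20, SE 0.16, adjusted p = 2.55e-06).

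The other strict RNF falls were smaller. *RNF43*, which removes Wnt receptors from the cell surface, averaged 6.25 ± 0.13 in IVM oocytes and 8.49 ± 0.23 in immature oocytes, a difference of -2.24 (SE 0.12, adjusted p = 2.90e-06). *RNF166* averaged 7.17 ± 0.34 in IVM oocytes and 9.15 ± 0.24 in immature oocytes (difference -1.98, SE 0.19, adjusted p = 8.82e-05), and its call ended when any array other than IVM replicate 5 was left out (adjusted p up to 5.18e-04). *RNF113A*, a spliceosome protein with a RING finger, averaged 7.97 ± 0.20 in IVM oocytes and 9.07 ± 0.04 in immature oocytes (all SD, n = 5; difference -1.11, SE 0.09, adjusted p = 3.29e-05), and its call was kept only without IVM replicate 3, 4 or 5 (adjusted p up to 2.24e-04 without another array). *RNF4*, a ligase that recognises SUMO chains, was lower at the looser threshold (difference -1.98, SE 0.25, adjusted p = 4.34e-04), with 7.65 to 8.74 in IVM oocytes and 9.86 to 10.80 in immature oocytes.

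Rises among the RNF proteins reached the looser threshold only, and strict rises were rare on the whole array (2.38% of varying probe sets). *RNF130*, a membrane ligase of the Goliath family, read 10.67, 10.54, 10.51, 10.38 and 11.20 in IVM oocytes, against 9.22, 9.35, 8.98, 8.96 and 9.18 in immature oocytes, without overlap (difference 1.53, SE 0.16, adjusted p = 1.59e-04). *RNF128*, a membrane ligase known from T cell anergy, read 8.81, 8.89, 8.44, 9.57 and 8.14 in IVM oocytes, against 6.84, 7.30, 6.98, 7.08 and 7.34 in immature oocytes (difference 1.66, SE 0.26, adjusted p = 0.00146). *RNF2*, the Polycomb ligase of histone H2A, had 8.51 to 9.69 in IVM oocytes and 7.91 to 8.47 in immature oocytes (difference 1.05, SE 0.23, adjusted p = 0.00882). The largest rise, *RNF11*, an adaptor of HECT ligases, also spread widely within both groups, at 9.30, 10.15, 9.54, 10.46 and 8.53 in IVM oocytes against 7.18, 6.49, 7.90, 8.33 and 7.17 in immature oocytes (difference 2.19, SE 0.46, adjusted p = 0.00756). In both groups its arrays stood in the order of the cumulus and granulosa marker means, which were 8.94, 9.60, 9.21, 10.44 and 8.35 in IVM replicates 1 to 5 and 7.77, 6.93, 8.31, 8.65 and 7.62 in immature replicates 1 to 5.

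HECT and U-box ligases could hardly be read. Of their 11 probe sets 3 varied, both of *UBE3B* described above and *NEDD4L*, which had 10.08 to 11.08 in IVM oocytes and 10.46 to 11.10 in immature oocytes and did not pass (difference -0.08, adjusted p = 0.883).

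USP deubiquitinases had 4 strict falls from 3 genes and no strict rise. Of 39 probe sets 20 varied, 4 of 20 strictly lower, beside 12.1% of all varying probe sets. At the looser threshold 6 were lower and 10 higher (30.0% and 50.0%, beside 31.7% and 34.0%), and the median was 0.40, beside 0.18. *USP8*, which acts on endosomes and spares receptors from degradation, was lower on both probe sets. The first read 9.24, 9.10, 8.71, 9.34 and 8.96 in IVM oocytes, against 11.69, 12.39, 11.75, 11.73 and 12.04 in immature oocytes (difference -2.85, SE 0.17, adjusted p = 6.24e-06). The other read 7.66, 7.38, 7.02, 7.49 and 7.34 in IVM oocytes, against 9.62, 10.37, 9.61, 9.39 and 9.78 in immature oocytes (difference -2.38, SE 0.19, adjusted p = 3.84e-05), a call that ended when any array other than immature replicate 2 was left out (adjusted p up to 2.56e-04).

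*USP10*, a protease that stabilises p53 and binds stress granule proteins, read 9.90, 9.74, 9.83, 9.50 and 9.94 in IVM oocytes, against 12.43, 12.69, 12.55, 12.07 and 12.25 in immature oocytes. The groups were more than 2 log2 units apart (difference -2.62, SE 0.13, adjusted p = 2.64e-06). *USP16*, which removes ubiquitin from histone H2A before mitosis, read 8.66, 8.67, 8.28, 8.96 and 8.21 in IVM oocytes, against 10.81, 11.00, 10.62, 10.49 and 10.75 in immature oocytes (difference -2.17, SE 0.16, adjusted p = 2.20e-05). Its strict call was kept only without IVM replicate 3, 4 or 5 or immature replicate 4 (adjusted p up to 1.59e-04 without another array). The histone proteases *USP22*, of the SAGA coactivator, and *USP21* lay on the other side. *USP22* averaged 11.27 ± 0.17 in IVM oocytes and 10.48 ± 0.10 in immature oocytes (SD, n = 5 each, difference 0.79, adjusted p = 1.99e-04), a rise under the poly-A shift, and *USP21* was higher by 1.08 (adjusted p = 3.35e-04) and 1.24 (adjusted p = 3.47e-04) on its 2 varying probe sets.

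*USP2* and *USP53* were the highest USP rises. *USP2*, known for stabilising cyclin D1 and clock proteins, read 9.89, 9.31, 9.42, 8.72 and 10.10 in IVM oocytes, against 7.87, 8.36, 7.41, 7.67 and 7.73 in immature oocytes (difference 1.68, SE 0.29, adjusted p = 0.00244). *USP53*, a family member found at tight junctions, read 12.25, 11.36, 11.87, 11.44 and 11.93 in IVM oocytes, against 10.33, 10.83, 10.31, 10.28 and 10.35 in immature oocytes, without overlap (difference 1.35, SE 0.19, adjusted p = 0.00103).

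Ubiquitin C-terminal hydrolases, which free ubiquitin from short adducts, split by member. *UCHL5*, a deubiquitinase bound to the proteasome, read 8.54, 8.80, 8.86, 9.28 and 9.03 in IVM oocytes, against 10.76, 11.05, 11.02, 11.09 and 11.03 in immature oocytes (difference -2.08, SE 0.13, adjusted p = 9.49e-06). *UCHL3*, which can process both ubiquitin and NEDD8, read 10.48, 10.24, 10.61, 9.31 and 10.77 in IVM oocytes, against 12.99, 12.79, 12.95, 12.21 and 12.25 in immature oocytes (difference -2.36, SE 0.31, adjusted p = 5.75e-04). *UCHL1*, an abundant protein of oocytes and neurons, did not pass. Its values were 11.68, 12.74, 12.01, 13.03 and 11.50 in IVM oocytes and 11.74, 11.62, 11.58, 12.07 and 11.73 in immature oocytes (difference 0.45, SE 0.31, adjusted p = 0.349), and its IVM arrays stood in the order of the cumulus and granulosa markers.

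Of the OTU proteases, *OTUB1*, which can block E2 enzymes, was lower (difference -0.93, SE 0.18, adjusted p = 0.00460) and *OTUD4* was higher (difference 1.30, SE 0.29, adjusted p = 0.00906), both at the looser threshold. *OTUD5* met the rule for named genes with an adjusted p of 0.00715, but its values differed by 5.2e-09 on the log2 scale and it counts as not varying.

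Genes of the pathway outside the symbol rule were read from 4 further lists. Among other ligases and adaptors, 4 of 69 probe sets were lower and 1 varying probe set was higher at the strict threshold, and 12 were lower and 22 higher at the looser one, of 46 that varied. *UBR1* also passed as higher but with a flat probe set, so it is not counted. Other deubiquitinases had 1 strict fall of 19 probe sets, with 4 lower and 6 higher of 12 varying ones at the looser threshold. Ubiquitin and ubiquitin-like modifiers with their enzymes had 2 strict falls and 1 strict rise of 30 probe sets, with 5 lower and 7 higher of 18. Ubiquitin receptors and cofactors of the VCP segregase also had 2 strict falls and 1 strict rise of 30, with 8 lower and 7 higher of 18. The strict falls of the 4 lists were 8.70%, 8.33%, 11.1% and 11.1% of their varying probe sets, none above the 12.1% of all varying probe sets. Their strict rises were 2.17%, 0.00%, 5.56% and 5.56%, beside 2.38%. At the looser threshold the falls were 26.1%, 33.3%, 27.8% and 44.4%, beside 31.7%. The looser rises were 47.8%, 50.0%, 38.9% and 38.9%, beside 34.0%.

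Several of these strict calls belong to the cullin and NEDD8 cycle, a grouping made after the values were seen. *DCUN1D1*, a ligase that helps join NEDD8 to cullins, read 7.49, 6.77, 6.06, 6.70 and 6.97 in IVM oocytes, against 9.74, 10.44, 9.51, 9.52 and 9.94 in immature oocytes (difference -3.03, SE 0.29, adjusted p = 8.80e-05), a call that ended whichever array was left out (adjusted p up to 5.18e-04). *GPS1*, the first COP9 subunit, read 7.17, 7.59, 7.51, 8.05 and 7.08 in IVM oocytes, against 9.63, 9.57, 9.43, 9.49 and 9.75 in immature oocytes (difference -2.09, SE 0.18, adjusted p = 5.08e-05). *CAND1*, which exchanges substrate receptors on cullins free of NEDD8, was lower (difference -1.07, SE 0.08, adjusted p = 2.49e-05). *KEAP1*, the CUL3 adaptor that holds NRF2 down, was higher, at 10.33, 10.84, 10.69, 10.89 and 10.84 in IVM oocytes against 8.83, 8.58, 8.65, 9.06 and 9.05 in immature oocytes (difference 1.88, SE 0.14, adjusted p = 2.41e-05). The strict calls of *CAND1* and *KEAP1* were kept only without IVM replicate 1 or 4 or immature replicate 4 (adjusted p up to 1.75e-04 and 1.70e-04 without another array), and that of *GPS1* only without IVM replicate 4 (up to 3.17e-04).

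*TRAF6*, a ligase of immune and stress signalling, was lower (difference -3.29, SE 0.18, adjusted p = 3.60e-06), as was *DDB2*, the DNA damage receptor of CUL4 ligases (difference -2.85, SE 0.19, adjusted p = 1.17e-05). Among the receptors, the VCP cofactors *NSFL1C* (difference -3.69, SE 0.16, adjusted p = 1.16e-06) and *UBXN6* (difference -1.63, SE 0.09, adjusted p = 3.34e-06) were lower. *SQSTM1*, the autophagy receptor p62, was higher by 0.56 (SE 0.05, adjusted p = 7.13e-05), which is less than the poly-A shift. *ISG15*, the modifier handled by *UBA7* and *UBE2L6*, read 9.69, 11.00, 10.41, 11.74 and 10.10 in IVM oocytes, against 5.86, 5.59, 5.83, 5.44 and 5.42 in immature oocytes (difference 4.96, SE 0.37, adjusted p = 2.19e-05). The modifier *UBL4A* was lower (difference -1.51, adjusted p = 7.89e-06). *MAP1LC3B*, of the autophagy modifiers, gave no single direction, since 1 of its 2 varying probe sets was lower (difference -1.13, adjusted p = 5.02e-05) and the other was higher at the looser threshold without overlap (difference 0.56, adjusted p = 0.00615), by less than the poly-A shift. The calls of *TRAF6*, *DDB2*, *NSFL1C*, *UBXN6* and *UBL4A* were kept whichever array was left out. That of *ISG15* was kept only without IVM replicate 1, 4 or 5 (adjusted p up to 1.58e-04 without another array), that of *SQSTM1* only without IVM replicate 3 or 5 (up to 4.29e-04), and that of the lower *MAP1LC3B* probe set only without IVM replicate 4 (up to 3.09e-04).

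The pools of the whole array, members included, spread more in IVM than in immature oocytes. The SD of members was larger in IVM oocytes for 93 of the 121 varying members (76.9%, beside 77.7% of all varying probe sets), with medians of 0.30 in IVM oocytes and 0.19 in immature oocytes. IVM replicate 4 gave the lowest IVM value for 56 of the 121 members (46.3%, beside 37.4% of all varying probe sets) and the highest for 33 (27.3%, beside 37.1%). Its median distance from the group mean was 0.358 over members, against 0.119 to 0.196 for the other IVM arrays, and 0.368 over all varying probe sets. Immature replicate 2 was the highest immature array for 58 members (47.9%, beside 38.1%) and immature replicate 4 the lowest for 45 (37.2%, beside 30.4%). The 5 IVM arrays stood in the exact order of the cumulus and granulosa markers for 6 members (4.96%, beside 10.8% of all varying probe sets), namely *COPS5*, *RNF11*, *UBE2B*, *UBE2F*, *UCHL1* and *USP42*, and in the reverse order for 12 (9.92%, beside 5.68%). In immature oocytes the same order held for 3 members (2.48%, beside 6.31%), namely *RNF11*, *RNF187* and *USP42*, and the reverse order for 8 (6.61%, beside 4.06%).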

How the data were processed

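The authors quantified the images of 10 arrays with GCOS, normalized them by quantiles and combined probes by FARMS, and each deposited value is a log2 value for 1 probe set on 1 array. The symbols came from the platform's annotation, updated through gene identifiers where a current one existed, and 13292 of 24016 probe sets had a single symbol. The 112 control probe sets were set apart. The members and lists were chosen with earlier results of these data known, and the class rule and thresholds with them.

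IVM was compared with immature by a linear model with moderated variances (limma 3.58.1, R 4.3.3), without a block. P-values were adjusted over all 24016 probe sets (Benjamini-Hochberg), with thresholds of 0.0001 (strict, the false discovery rate of the study's methods) and 0.05 (looser). At 0.05 the fit also passed probe sets whose values hardly differ, so the looser counts were restricted to varying probe sets, a departure from the plan. As planned they were 53 lower and 51 higher members, of which 6 and 6 were flat. Named genes were all strict calls, in each class up to 2 of the largest rises and 2 of the largest falls past 0.05 without overlap, genes with opposite probe sets, SUMO and NEDD8, and up to 2 strict rises and falls of each further list. Other members and list genes were named after their values were seen, for their role. No sequence of members was analysed here. Apart from the 3' and 5' ends of the actin and GAPD controls, levels were not compared between probe sets.

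According to the methods, replicates are days of collection, so equal numbers were taken as a day. The departures of same-numbered arrays from their group means correlated, over the 9460 varying probe sets, with r = 0.143, -0.347, 0.0872, 0.672 and 0.359 for replicates 1 to 5. The highest r with an array of another number was 0.561, 0.628, 0.357, 0.484 and 0.628. The pairing was thus borne out for replicate 4 only, and the fit with the block is given beside the main counts. Alternatives were fits over varying or brighter probe sets, with the block, with a trend and robust prior, centred on the median of varying probe sets or on poly-A controls, without single arrays, and, added after seeing the data, over varying probe sets without single arrays or without the immature arrays of low hybridization controls. The fit was tested on simulated data. All columns of values were used. The number of arrays limits the precision. Controls were compared by exact permutation tests. Figures were made with matplotlib 3.10.9 and tables with pandas 2.3.3 in Python 3.11.15.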

Additional observations from a re-analysis of the deposited data

Results flagged for a closer look

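In 9 of the 88 groups of 5 arrays tested over the named probe sets, 1 array stood far from the other 4, where chance gives about 1 in 20. In IVM oocytes, *COPS4* was high in replicate 4 (9.2211, the others 8.35 to 8.57) and *FBXO15* was low in the same array (9.0108, the others 9.82 to 10.10). *RNF166* and *RNF31* were high in IVM replicate 5 (7.7537, the others 6.91 to 7.15, and 7.2794, the others 6.76 to 6.89), and *UBE2D2* was low in IVM replicate 3 (10.4397, the others 10.68 to 10.75). In immature oocytes, *RNF166* was low in replicate 4 (8.7289, the others 9.19 to 9.36), *RNF113A* was low in replicate 3 (9.0098, the others 9.08 to 9.10), and *UCHL5* was low in replicate 1 (10.7599, the others 11.02 to 11.09). *USP53* was high in immature replicate 2 (10.8342, the others 10.28 to 10.35). None of these arrays brought the groups of its probe set to overlap.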

How the results depend on the processing

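The fit over all probe sets has a prior of 0.103 degrees of freedom, against 1.86 over varying ones. Counts of strict falls (23) were 28 over varying probe sets, 26 after centring on the median of varying probe sets (a shift of -0.10), 25 with dim probe sets left out, 142 centred on poly-A controls (89 of them flat probe sets moved by the common shift alone, and 53 varying), 0 with the replicate block, 19 with the block over varying probe sets, and 0 without the immature arrays of low hybridization controls, or 9 over varying probe sets. Strict rises (2) were 11, 9, 7, 0, 0, 1 (neither of the 2 reported), 0 and 0 in the same order, and 1 with 1 probe set a gene. The falls at the looser threshold (47) were 77 centred on poly-A controls, and the rises (45) were 8, and 19 without the immature arrays of low hybridization controls.

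Leaving out each array in turn gave 16 to 20 strict falls and 0 to 4 strict rises, and over varying probe sets 25 to 27 falls and 4, 5, 7, 8 or 17 rises, with 17 without IVM replicate 4. Centred on poly-A controls, 21 of the 45 looser rises turned negative. Among the genes named by rule, the differences that reversed were those of *COPS8* (-0.20), *OTUD5* (-0.94), *SUMO3* (-0.13), *UBA3* (-0.61), *UBE2A* by its higher probe set (-0.17) and *UBE2D2* (-0.12). The cause was not tested. With the pairing of replicates as a block, the 25 strict calls all stayed under 0.05 and 78 of the 92 looser ones did. Probe sets that FARMS holds flat cannot be read, at whatever level they lie.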
